A study of Mus musculus with 10 samples.

Results

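The genes described here encode the ubiquitin-conjugating enzymes (E2 enzymes, symbols beginning with Ube2) and the main deubiquitinase families (symbols Usp followed by a number, and Uch) in mouse embryonic fibroblasts. They were found on the arrays by symbol: every probe set to which the platform annotation gives 1 symbol of these forms was taken. That gave 70 of 12422 ordinary probe sets, standing for 50 of the 8251 genes that a probe set names alone. The E2 class held 29 probe sets of 21 genes, and the deubiquitinase class held 41 probe sets of 29 genes. Another 3 probe sets, annotated with Ube2j2 or Ube2l3 and a further symbol, were not taken. No probe set with 1 symbol stood for Ube2l3 or Uchl3.

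Ubiquitin is a small protein that cells attach to other proteins. An activating enzyme (E1) passes it to an E2, and the E2, usually held by a ligase (E3), places it on a substrate, alone or as a chain whose linkage decides whether the substrate goes to the proteasome, to the lysosome or into a signalling complex. Deubiquitinases cut ubiquitin off again, trim chains at the proteasome and recycle free ubiquitin, and relatives of both classes handle modifiers such as Nedd8, SUMO and ISG15.

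The cells were primary fibroblasts of embryonic day 14.5 from the C57/BLACK6 background, and cells of every group carried 1 disrupted copy of Atf1 (genotype ATF1 +/-), so no wild-type cells were compared. Starvation lasted 48 h in dialyzed fetal bovine serum at 1%, and a final 2 h followed with serum at 10% in the serum-treated groups or still at 1% in the starved groups. Each serum state was sampled as 3 kinds of RNA. A sucrose gradient gave polyribosome RNA, whose messages carried at least 2 ribosomes, and undertranslated RNA, whose messages carried at most 1, a subunit alone included. The ribosomes of these gradient cultures were halted by 30 min in cycloheximide at 100 ug/ml. Cytoplasmic RNA came from cells without the drug, so the use of cycloheximide and the gradient cannot be told apart from the pool in comparisons with cytoplasmic RNA. The 10 arrays comprised 2 each of serum-treated and starved polyribosome RNA, 2 each of serum-treated and starved undertranslated RNA, and 1 each of serum-treated and starved cytoplasmic RNA. Replicate 2 of each gradient group was also labelled with 200 uM 4-thiouridine and tritiated cytidine. Equal gradient fractions of several cultures were pooled per array, so p-values measure the spread between such pools. That spread includes the labelling difference within each gradient group, and the cytoplasmic groups had no replicate.

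The arrays differed in brightness by pool. The median deposited intensity was 45.2 to 54 on polyribosome arrays, 5.7 to 8.8 on undertranslated arrays and 19 to 19.1 on cytoplasmic arrays. Background, taken on each array as the brightest of 19 unspiked bacterial and yeast controls, was 11 to 16.1, 6.7 to 9.6 and 8.2 to 13.8 intensity units in the same order of pools. The 3' to 5' signal ratio of Actb, a sign of RNA integrity, was 11.5 to 21.1 on polyribosome arrays, 23.6 to 137 on undertranslated arrays and 11.9 to 16.6 on cytoplasmic arrays. That of Gapdh ordered the pools differently, at 6.11 to 20.9, 3.70 to 6.81 and 28.4 to 47.03 in the same order of pools. All 13 fibroblast marker genes were above background on the polyribosome and cytoplasmic arrays and 12 of them on each undertranslated array. Arrays were quantile normalized, so levels below are log2 values on a scale that gives every array the same distribution, and levels are compared between arrays but not between probe sets. Of the 70 member probe sets, 59 passed the filter on low levels, 28 of the E2 class (all 21 genes) and 31 of the deubiquitinase class (23 genes). The 11 left out included all probe sets of Usp12, Usp17la, Usp17lc, Usp22, Usp29 and Usp42. Usp22, the deubiquitinase of the SAGA chromatin complex, was above background on 0 of 10 arrays, and so were the other 5 of these genes.

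The first question was how the 2 classes were spread between polyribosome and undertranslated RNA. Averaged over both serum states, E2 probe sets lay mostly lower in polyribosome RNA than in undertranslated RNA and deubiquitinase probe sets lay mostly higher, relative to the other genes on the arrays, an order whose signs turn for the E2 class under the other scalings described below. Of 28 E2 probe sets 1 was higher in polyribosome RNA and 14 were lower (limma, Benjamini-Hochberg adjusted p under 0.05). The lower ones included probe sets of Ube2d3, Ube2k, Ube2c, Ube2e1 and Ube2w whose name suffix marks probes shared with other transcripts or chosen under relaxed rules. Without such probe sets the E2 shift in starved cells was much smaller, as given below. Of 31 deubiquitinase probe sets 13 were higher and 4 were lower. Over all 9316 probe sets tested, 28.7% were called higher and 25.5% lower. The median log2 difference was -0.64 for the E2 class and 0.89 for the deubiquitinase class, against 0.05 for all probe sets. With 1 probe set per gene, 1 E2 gene was higher and 12 were lower of 21, and 9 deubiquitinase genes were higher and 2 were lower of 23.

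**Figure D1:**
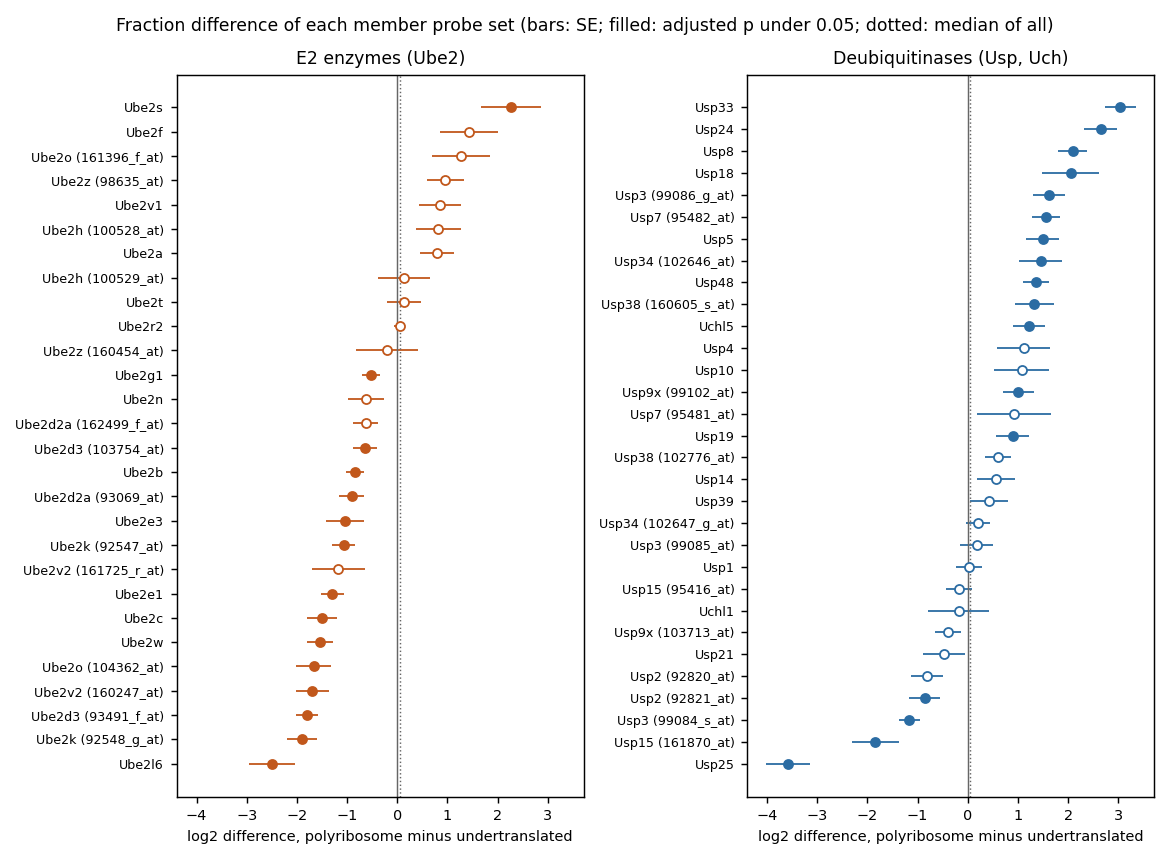
Log2 difference, polyribosome minus undertranslated RNA averaged over both serum states, for each of the 28 E2 (left) and 31 deubiquitinase (right) probe sets that passed the filter, with standard errors on the horizontal axis; filled points had an adjusted p under 0.05. E2 probe sets run from Ube2s at 2.26 to Ube2l6 at -2.50 and deubiquitinase probe sets from Usp33 at 3.04 to Usp25 at -3.59, on quantile-normalized values; on the values as deposited no filled point would lie left of zero.

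The direction in single arrays showed the same order of the classes. In the serum-treated cultures, the median E2 difference was -0.63 in replicate 2 and -0.42 in replicate 1, and in the starved cultures it was -0.91 and -0.54. The median deubiquitinase difference was 0.02 and 0.99 in the serum-treated pairs and 0.46 and 0.89 in the starved pairs, so that serum-treated replicate 2 showed almost none. In that pair 17 of 31 deubiquitinase probe sets were higher in polyribosome RNA, against 22 or 23 in the other 3 pairs. For 11 E2 probe sets every undertranslated array was above every polyribosome array, and for 1 it was the reverse. For the deubiquitinases these counts were 3 and 13. Among all probe sets tested, 23.7% had all undertranslated arrays above all polyribosome arrays and 26.1% had the reverse.

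**Figure D2:**
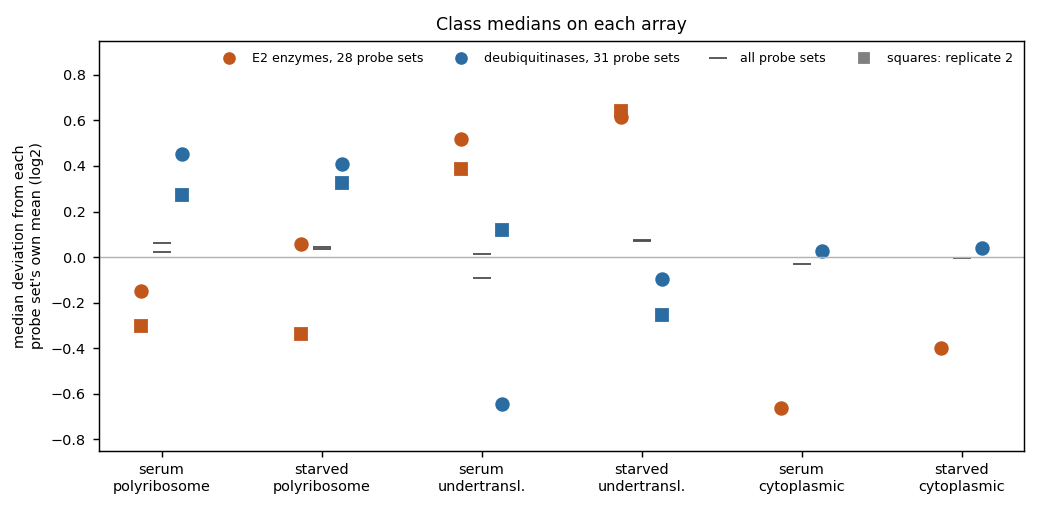
Median over each class of the deviation of a probe set's log2 level from its own mean over the 10 arrays, by array (circles replicate 1, squares replicate 2; grey dashes, all probe sets). E2 medians lie between 0.39 and 0.64 on the 4 undertranslated arrays and between -0.34 and 0.06 on the polyribosome arrays; deubiquitinase medians lie between 0.27 and 0.45 on the polyribosome arrays and between -0.64 and 0.12 on the undertranslated arrays, all on quantile-normalized values (as deposited both class medians are higher in polyribosome RNA).

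These directions are relative to the scaling. On the values as deposited the median of all probe sets was 3.02 log2 units higher in polyribosome RNA, 26 E2 and 30 deubiquitinase probe sets were called higher and 0 of either class lower against 91.9% higher and 0.397% lower of all, and for 59 of the 70 member probe sets every polyribosome intensity was above every undertranslated one. With each array centred on its median the shift of all probe sets was 0.55, with 9 E2 probe sets higher and 5 lower and 22 deubiquitinase probe sets higher and 2 lower, against 45.5% higher and 22.6% lower of all. Relative to the median of all, the E2 class lay at -0.21 and the deubiquitinase class at 0.79 under both of these scalings. Centring shifts every probe set of an array alike, so these relative values are the same by construction and do not count as separate results. The order of the classes was that of the quantile-normalized values, while the sign of the E2 median turned to 2.80 and 0.34.

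Signal over background moved with the same comparison. On all 8 gradient arrays 16 E2 and 13 deubiquitinase probe sets were above background. Of those, 0 E2 probe sets were higher in polyribosome RNA and 12 were lower, with a median of -0.99, and 2 deubiquitinase probe sets were higher and 3 lower, with a median of 0.03. The 3781 probe sets of any gene with that property had a median of -0.44, with 20.8% called higher and 43.2% lower. Of the 18 deubiquitinase probe sets that were not above background on at least 1 gradient array, 11 were higher and 1 was lower, with a median of 1.27, and the 12 E2 probe sets of this kind had 1 higher and 2 lower, with a median of 0.46. All 5535 such probe sets had a median of 0.45, with 34.1% called higher and 13.5% lower. Detection on the undertranslated arrays enters this split, and the difference itself moves it. The part of dim undertranslated signal in the deubiquitinase values was not tested.

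**Figure D3:**
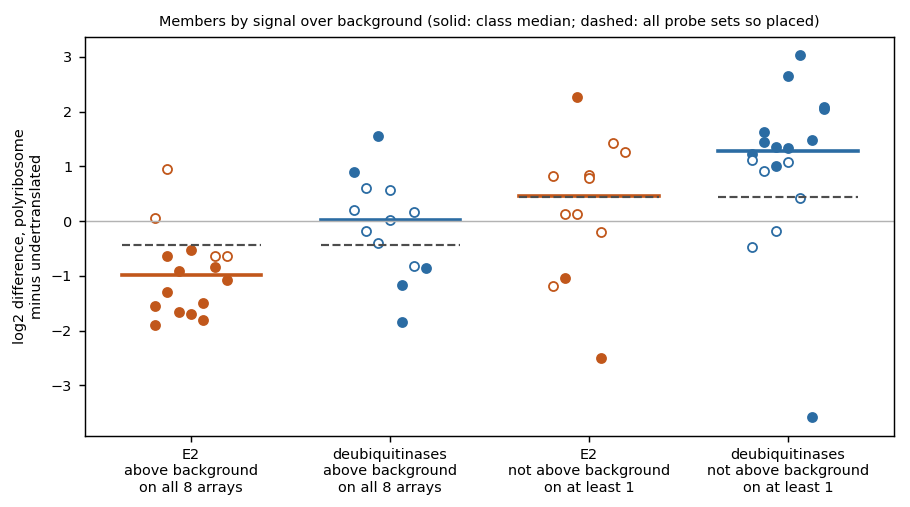
The same log2 differences, split by whether a member probe set was above background on all 8 gradient arrays (2 left columns) or not (2 right columns); solid lines are class medians and dashed lines the median of all tested probe sets of that kind. Among the clearly detected members the E2 median is -0.99 and the deubiquitinase median 0.03 against -0.44 for all; among the others the medians are 0.46 and 1.27 against 0.45, on quantile-normalized values (as deposited the class medians are 2.80 and 3.80 over all tested members).

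Among the E2 enzymes, the broad-specificity Ube2d and Ube2e enzymes start chains with many ligases, and Ube2w marks protein amino termini. Of their 7 probe sets 6 were lower in polyribosome RNA, against 25.5% lower of all, and all 7 differences were below 0. As deposited no E2 probe set was called lower. Ube2d3, by its brighter probe set, had log2 levels of 8.03 and 7.49 in serum-treated and 7.98 and 7.43 in starved polyribosome RNA, against 10.15 and 9.54 in serum-treated and 9.16 and 9.26 in starved undertranslated RNA. No polyribosome array reached the lowest undertranslated one. The difference was -1.80 ± 0.22 (SE, 8 arrays; adjusted p = 0.000317), and the second Ube2d3 probe set gave -0.64 ± 0.24 (adjusted p = 0.0464). Ube2w was at -1.54, Ube2e1 at -1.29, Ube2e3 at -1.04 and the brighter Ube2d2a probe set at -0.91, all passing the test.

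The E2 enzymes that build proteasome-targeting chains gave 3 lower probe sets of 4, against 25.5% lower of all. Ube2k, which extends such chains by itself, by its brighter probe set stood at 6.33 and 5.88 in serum-treated and 6.33 and 6.40 in starved polyribosome RNA, against 8.79 and 7.49 in serum-treated and 8.12 and 8.12 in starved undertranslated RNA. The groups did not overlap, and the difference was -1.89 ± 0.30 (SE; adjusted p = 0.0011). Its other probe set was also lower, at -1.07. Ube2g1, an E2 of endoplasmic reticulum degradation, differed by -0.52 ± 0.18 (adjusted p = 0.0353). Ube2r2, a partner of cullin ligases, differed by 0.05 ± 0.11 and did not pass (adjusted p = 0.72).

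Ube2n builds signalling chains together with the inactive E2 variants Ube2v1 or Ube2v2, and of these 3 genes Ube2v2 passed the test. Ube2v2 had 5.33 and 4.94 in serum-treated and 5.52 and 5.27 in starved polyribosome RNA, against 5.71 and 6.99 in serum-treated and 7.67 and 7.45 in starved undertranslated RNA. It was lower by every pair, at -1.69 ± 0.32 (adjusted p = 0.00288), with the nearest approach of the groups in serum-treated replicate 1. These values are of the brighter Ube2v2 probe set, and the other, at -1.18, did not pass. Ube2n at -0.63 ± 0.36 and Ube2v1 at 0.85 ± 0.42 did not pass (adjusted p = 0.172 and 0.118).

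The 2 E2 enzymes of the anaphase-promoting complex, which starts mitotic exit, were called in opposite directions. Ube2s, which elongates the chains, had 5.38 and 5.71 in serum-treated and 5.09 and 5.49 in starved polyribosome RNA, against 2.39 and 5.30 in serum-treated and 2.67 and 2.26 in starved undertranslated RNA. It was the only E2 probe set higher in polyribosome RNA, by 2.26 ± 0.59 (adjusted p = 0.0122), and serum-treated undertranslated replicate 2 lay within the polyribosome range. It was above background on 1 of 4 undertranslated arrays, and the Ube2s call was lost without starved polyribosome replicate 2 (adjusted p = 0.0501). Ube2c, which starts the chains, was lower at -1.49 ± 0.30 (adjusted p = 0.00355).

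Ube2l6, the E2 for the interferon-induced modifier ISG15, had the lowest E2 value. It stood at 1.96 and 3.50 in serum-treated and 2.30 and 2.39 in starved polyribosome RNA, against 6.21 and 5.29 in serum-treated and 4.71 and 3.95 in starved undertranslated RNA. The groups did not overlap and the difference was -2.50 ± 0.46 (adjusted p = 0.00237), but the probe set was dim, above background on 1 of 4 polyribosome and 3 of 4 undertranslated arrays. The E2s of Nedd8 (Ube2f, above background on 0 of 4 undertranslated arrays) and of the modifier FAT10 (Ube2z, 0.96 ± 0.36 by its brighter probe set) did not pass.

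Ube2b, which acts on histones and at damaged DNA, was lower at -0.84 ± 0.18 (adjusted p = 0.00499). Its near-copy Ube2a gave 0.79 ± 0.33 and did not pass, nor did Ube2t of the Fanconi anaemia pathway at 0.13 ± 0.34 or Ube2h, the E2 of the CTLH ligase, at 0.82 ± 0.44. Ube2o, a large enzyme that acts as E2 and E3 in one chain, gave opposite values by probe set: -1.66 ± 0.35 (adjusted p = 0.00441) by the brighter one and 1.27 ± 0.57 (not passed) by another.

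**Figure D4:**
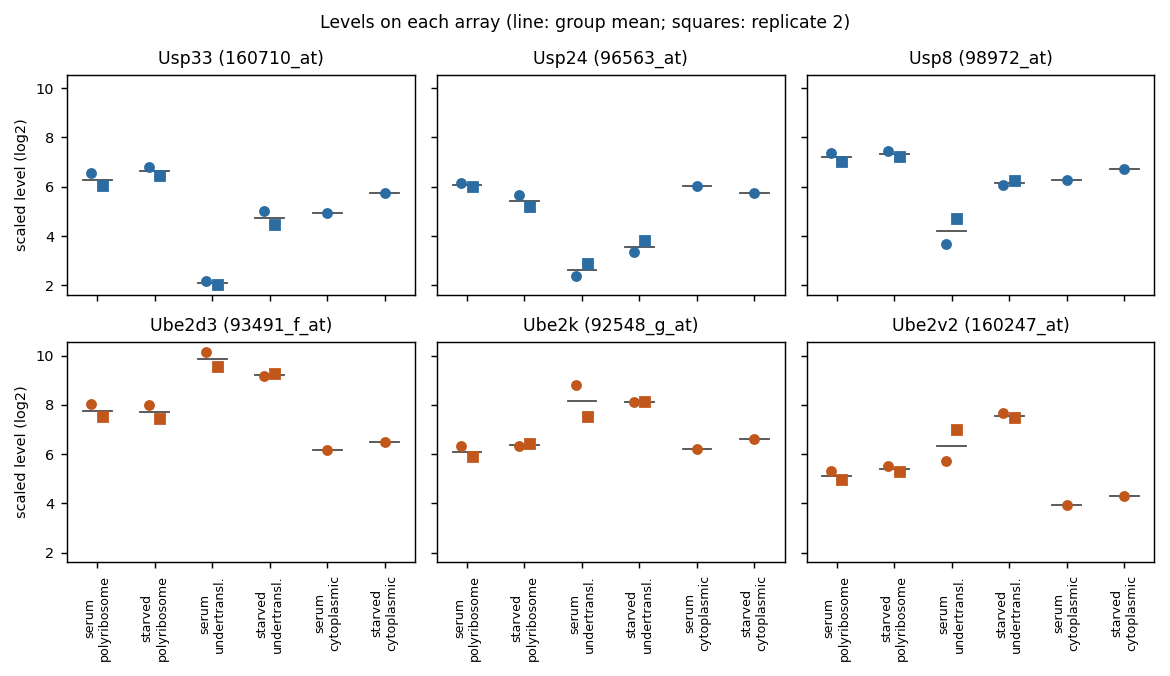
Quantile-normalized log2 level on each array (circles replicate 1, squares replicate 2, line the group mean) for 3 deubiquitinases (top) and 3 E2 enzymes (bottom) in the 6 groups. Usp33, Usp24 and Usp8 are lowest in serum-treated undertranslated RNA, and Ube2d3, Ube2k and Ube2v2 have their highest group means in undertranslated RNA, where on the values as deposited all 3 are higher in polyribosome RNA, by 2.28, 2.03 and 1.71.

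Among the deubiquitinases, those of endosomes and membranes gave 4 higher probe sets of 6 and none lower, against 28.7% higher and 25.5% lower of all. As deposited 91.9% of all probe sets were called higher. Usp33, which acts on membrane receptors and centrosome proteins, had 6.55 and 6.01 in serum-treated and 6.80 and 6.46 in starved polyribosome RNA, against 2.19 and 2.02 in serum-treated and 5.02 and 4.44 in starved undertranslated RNA. No undertranslated array reached the lowest polyribosome array, and the difference was 3.04 ± 0.31 (SE; adjusted p = 0.00015). In the serum-treated cells no undertranslated array was above background, and polyribosome RNA was at least 2.83-fold higher. Usp8, which removes ubiquitin from receptors at endosomes, had 7.37 and 7.005 in serum-treated and 7.44 and 7.20 in starved polyribosome RNA, against 3.67 and 4.71 in serum-treated and 6.07 and 6.22 in starved undertranslated RNA. It was higher in every pair, by 2.09 ± 0.29 (adjusted p = 0.00062), and at least 5.30-fold in serum-treated cells. Usp19, an endoplasmic reticulum enzyme, was higher by 0.89 ± 0.32 (adjusted p = 0.0442). The brighter Usp9x probe set gave -0.40 ± 0.25 (not passed) and the dimmer one 1.00 ± 0.31 (adjusted p = 0.0239).

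Usp24, a very large enzyme, had 6.14 and 5.98 in serum-treated and 5.66 and 5.18 in starved polyribosome RNA, against 2.39 and 2.86 in serum-treated and 3.34 and 3.79 in starved undertranslated RNA. The groups did not overlap. No undertranslated array was above background, so polyribosome RNA was at least 2.39-fold higher (adjusted p = 0.000325). Usp18, the protease that removes ISG15, had 5.71 and 6.02 in serum-treated and 5.61 and 5.71 in starved polyribosome RNA, against 3.37 and 5.90 in serum-treated and 2.12 and 3.46 in starved undertranslated RNA. It was higher by 2.05 ± 0.57 (adjusted p = 0.0156), with serum-treated undertranslated replicate 2 inside the polyribosome range, and the call was lost without starved undertranslated replicate 1, starved polyribosome replicate 2 or serum-treated polyribosome replicate 2 (adjusted p up to 0.0596). The protease that removes ISG15 and the E2 that attaches it, Ube2l6, thus had opposite signs. Usp18 was above background on 1 of 4 undertranslated arrays, so the size of its difference rests partly on dim values.

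Of the chromatin and DNA repair group, Usp7, which acts on Mdm2 and p53, was higher by 1.56 ± 0.27 (adjusted p = 0.00182) with the brighter probe set, above background on all arrays. Its levels were 8.05 and 7.68 in serum-treated and 8.12 and 7.78 in starved polyribosome RNA, against 6.57 and 5.95 in serum-treated and 6.03 and 6.86 in starved undertranslated RNA, without overlap. Usp48 was higher by 1.36 ± 0.25 (adjusted p = 0.00251). Usp1, which works in the Fanconi anaemia pathway, was at 0.03 ± 0.26 and Usp21 at -0.48 ± 0.42, neither passing. Usp3, a histone deubiquitinase, gave 3 answers: -1.17 ± 0.21 by its brightest probe set (adjusted p = 0.00205), 0.17 by the second and 1.63 ± 0.32 by the dimmest (adjusted p = 0.00313). The proteasome-bound pair gave Uchl5 higher by 1.22 ± 0.32 (adjusted p = 0.0116) and Usp14 at 0.57 ± 0.38 (not passed). Usp5, which takes apart free chains, was at least 1.98-fold higher (adjusted p = 0.00545), while the inactive spliceosome member Usp39 and Usp4 did not pass.

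On the other side, Usp25 had the lowest value of any member. It stood at 4.50 and 2.66 in serum-treated and 4.61 and 4.22 in starved polyribosome RNA, against 8.36 and 7.29 in serum-treated and 7.47 and 7.21 in starved undertranslated RNA. The groups lay far apart, with a difference of -3.59 ± 0.44 (adjusted p = 0.000318). Its only probe set carries the suffix _r, which marks probes chosen under relaxed rules. Usp25 acts in inflammatory signalling. The dimmer Usp15 probe set was lower by -1.84 ± 0.47 and the brighter one was at -0.18 ± 0.26 (not passed). Both Usp2 probe sets were below 0, at -0.81 ± 0.33 (not passed) and -0.86 ± 0.31 (adjusted p = 0.0443). Uchl1, a hydrolase best known from neurons, was at -0.18 ± 0.61 and Usp10, which acts on p53 and on stress granules, at 1.08 ± 0.55 (neither passed), and Usp34 and Usp38 were each higher by the dimmer of their 2 probe sets.

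Of the 14 genes with several tested probe sets, 10 had all differences of one sign and 4 (Ube2o, Ube2z, Usp3 and Usp9x) had both. Within the whole set, 16 probe sets have a suffix (_f, _g, _i, _r or _s) that marks probes shared with other transcripts or chosen under relaxed rules. Such probe sets can hold signal of near-copies, among them the Ube2d3, Ube2k, Ube2c, Ube2e1, Ube2w and Usp25 values above.

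Within each serum state the order of the classes was the same. The tests within a state rest on a spread shared by the 4 gradient groups. The root mean square SD within a group was 0.987 in serum-treated and 0.695 in starved undertranslated RNA. In polyribosome RNA it was 0.353 and 0.348. The p-values thus do not measure the spread of each state by itself. In serum-treated cells 1 E2 probe set was higher in polyribosome RNA and 10 were lower, and 9 deubiquitinase probe sets were higher and 3 lower, against 23.5% higher and 20.5% lower of all. As deposited 25 E2 probe sets were higher and 0 lower in serum-treated cells, against 85.8% and 0.311% of all, and with median centring 10 were higher and 3 lower, against 41.6% and 16.1%. The single higher E2 on quantile-normalized values was Ube2f, the Nedd8 E2 (adjusted p = 0.0471). It was above background on 0 of 2 serum-treated undertranslated arrays, no bound above 1 could be given, and its call was lost without any 1 of the 4 polyribosome arrays or serum-treated undertranslated replicate 1 (adjusted p up to 0.181). In starved cells 1 E2 was higher (Ube2s, at least 2.15-fold, adjusted p = 0.037) and 8 were lower, and 5 deubiquitinase probe sets were higher and 3 lower, against 14.6% and 13.7% of all. As deposited 26 E2 probe sets were higher and 0 lower in starved cells, against 85.7% and 0.322% of all, and with median centring 6 were higher and 4 lower, against 34.7% and 13.7%. Without suffix probe sets the E2 median in starved cells lay at -0.05 relative to the median of all, against -0.78 with them, and 4 E2 probe sets were called lower. The Ube2s call held in 10 of 17 alternatives, and among the 8 fits with 1 array left out in the 2 without serum-treated undertranslated replicate 1 or 2. Counts of members called in starved cells ran from 0 to 29 as single arrays were left out, with 0 without starved polyribosome replicate 2, 2 without starved polyribosome replicate 1 or starved undertranslated replicate 1, 7 without starved undertranslated replicate 2, 8 without either serum-treated polyribosome array and 29 without either serum-treated undertranslated array. In serum-treated cells the count of 23 called members became 9 without either serum-treated polyribosome array and 35 without serum-treated undertranslated replicate 2. The share called of all probe sets fell and rose in the same fits. No member, and 0% of all probe sets, passed the test of whether the fraction difference itself changed with serum. At an unadjusted p under 0.05 there were 5 members of 59 and 720 of all. The lowest adjusted p of a member in that test was 0.472, for Usp33 and for the dimmest Usp3 probe set, both above background on 0 of 2 serum-treated undertranslated arrays. Leaving out serum-treated undertranslated replicate 2 gave 6 called members of 59, against 9.68% of all.

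The serum response of the members was next taken in polyribosome and cytoplasmic RNA together (3 serum-treated and 3 starved arrays). Polyribosome RNA had a smaller spread within groups than undertranslated RNA, while that of cytoplasmic RNA could not be measured. One of 59 probe sets changed: Usp2, a deubiquitinase known for acting on cyclin D1 and clock proteins. Usp2 had deposited intensities of 296.9 and 233.3 in serum-treated polyribosome RNA and 264.6 in serum-treated cytoplasmic RNA, against 162.4 and 97.5 in starved polyribosome RNA and 77.1 in starved cytoplasmic RNA. All 3 serum-treated arrays were above all 3 starved arrays. It rose by 1.22 ± 0.22 on the log2 scale (SE, 6 arrays; adjusted p = 0.0388), and 0.666% of all probe sets rose and 0.225% fell. The call was not stable: it was lost on leaving out any 1 of the 6 arrays, with differences between 0.98 and 1.40, and over all 15 alternatives the adjusted p ran from 0.0227 to 0.749. The second Usp2 probe set had intensities of 150.3, 138.7 and 91.1 on the serum-treated polyribosome and cytoplasmic arrays, against 122.2, 62.9 and 69.9 on the starved ones, and its difference of 0.59 ± 0.20 did not pass (adjusted p = 0.283). In undertranslated RNA the 2 Usp2 probe sets had opposite signs, 1.44 ± 0.46 and -0.72 ± 0.44, neither passing.

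**Figure D5:**
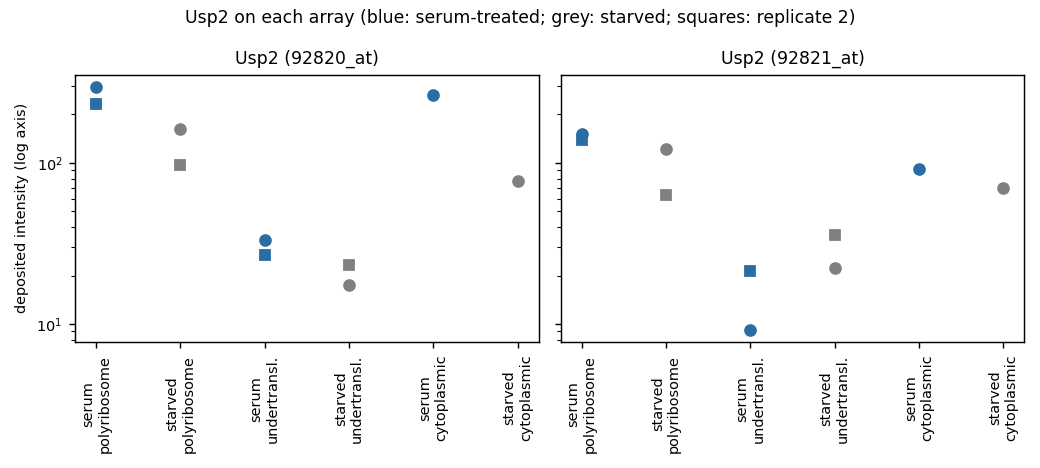
Deposited intensity (log axis) of both Usp2 probe sets on each array; blue points are serum-treated, grey starved, circles replicate 1 and squares replicate 2. For the brighter probe set (left) the serum-treated points lie above the starved points in each pool, in polyribosome RNA at 296.9 and 233.3 against 162.4 and 97.5; for the dimmer one (right) both serum-treated undertranslated points, 9.2 and 21.3, lie below both starved ones, 22.3 and 35.5.

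Macrophage markers moved with serum in the same arrays, and bulk RNA does not tell more cells of a type from more RNA per cell. Of 10 macrophage marker genes tested 5 rose and none fell, with a median difference of 1.05, and their summed intensity over 14 genes was 4270.7 and 5313.1 on the serum-treated polyribosome arrays and 890.3 on the serum-treated cytoplasmic array, against 1688.6 and 1427 on the starved polyribosome arrays and 417.1 on the starved cytoplasmic array. On these 6 arrays 7 to 12 of the 14 were above background. None of their probe sets was listed at 0, and Aif1 and Itgam, defining genes of the lineage, were above background on no array. Their part in the Usp2 value was not tested. The remaining 30 deubiquitinase and all 28 E2 probe sets did not pass, with medians of -0.11 and -0.08 for the 2 classes against -0.01 for all probe sets. Among the E2 enzymes the values ran from -0.66 ± 0.26 for Ube2g1 to 0.80 ± 0.36 for Ube2f (adjusted p = 0.373 and 0.43). Usp18 at -0.03 and Usp14 at -0.09 were close to 0.

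The RefSeq promoter window of Usp2 is shown since Usp2 was the one member that changed with serum in polyribosome and cytoplasmic RNA. It covers the 250 bases before the annotated start (GRCm38.p6, chr9:44084670-44084919, plus strand), with capitals marking the GC box letters GGGCGG.
Usp2: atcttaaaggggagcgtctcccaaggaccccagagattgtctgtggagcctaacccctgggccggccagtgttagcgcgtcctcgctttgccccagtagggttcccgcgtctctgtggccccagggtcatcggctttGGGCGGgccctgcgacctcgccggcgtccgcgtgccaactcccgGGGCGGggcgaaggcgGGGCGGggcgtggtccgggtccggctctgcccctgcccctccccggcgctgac
The window holds 3 GC boxes. Searched on both strands, it holds no core of the cAMP response element (TGACG), no E-box (CACGTG) and no interferon response element core. The GC box was added to the search after this window had been seen. Windows were matched for 16 of 21 E2 genes and 20 of 29 deubiquitinase genes, some with several starts. A GC box was present in 17 of 22 E2 windows and 13 of 20 deubiquitinase windows, against 55.3% of the 7050 windows of genes tested here and 32.7% of all 32851. The cAMP response element core was present in 6 E2 and 4 deubiquitinase windows (25.4% of tested genes' windows, 17.8% of all), and the E-box in 1 of each class (8.47% and 6.02%). The interferon element was in 0 windows of either class (2.57% and 2.98%). A start with C and 4 pyrimidines, the form of the 5' terminal oligopyrimidine mRNAs, was found in 0 of 22 and 0 of 20 (2.3% and 2.51%).

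In undertranslated RNA no E2 probe set changed with serum and 2 deubiquitinase probe sets fell, against 0.29% rising and 0.784% falling of all. They were Usp33, with levels of 2.19 and 2.02 in serum-treated against 5.02 and 4.44 in starved undertranslated RNA (adjusted p = 0.0376), and the dimmest Usp3 probe set, with 1.87 and 2.45 against 4.81 and 4.89 (adjusted p = 0.0364). Both were above background on 2 of 2 starved arrays and on 0 of 2 serum-treated arrays. The Usp3 value was at least 1.05-fold lower in serum-treated RNA, and no bound above 1 could be given for Usp33. These calls rest on a spread shared with the polyribosome arrays: the root mean square SD within a group was 0.987 in serum-treated and 0.695 in starved undertranslated RNA, against 0.353 in serum-treated and 0.348 in starved polyribosome RNA. On simulated data with these spreads, more of this comparison's calls were false than the threshold allows. Fitted on the 4 undertranslated arrays alone, 0 members and 0 of all probe sets passed (adjusted p = 0.479 for both), with 8 members and 917 of all at an unadjusted p under 0.05, and with a replicate block 0 members passed. Leaving out single arrays gave 14 called members of 59 without serum-treated undertranslated replicate 2 (24.7% of all), 5 without its replicate 1 (4.67% of all), and 0 when any of the remaining 6 was left out. Usp8 was not above background on either serum-treated undertranslated array, at 3.67 and 4.71, against 6.07 and 6.22 in starved cells, and did not pass.

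Both gradient pools were then set against cytoplasmic RNA, in 2 comparisons that share the 2 cytoplasmic arrays. In polyribosome RNA 10 E2 probe sets were higher and 4 lower, and 8 deubiquitinase probe sets were higher and 5 lower, against 14.5% higher and 11.9% lower of all. In undertranslated RNA 12 E2 probe sets were higher and 3 lower, and 4 deubiquitinase probe sets were higher and 5 lower, against 14.4% and 15.7% of all. The median E2 difference was 0.28 for polyribosome and 1.07 for undertranslated RNA, and the median deubiquitinase difference was 0.06 and -0.49. These directions, too, are relative to the scaling. As deposited, 22 E2 probe sets were higher and 1 lower in polyribosome RNA and 25 deubiquitinase probe sets were higher and 0 lower, against 75.8% higher and 0.934% lower of all. In undertranslated RNA 0 of either class were then higher, and 9 E2 and 25 deubiquitinase probe sets were lower, against 1.06% higher and 57.8% lower of all. The E2 median there turned to -0.86 and the deubiquitinase median was -1.92, against -1.55 for all. With median centring the undertranslated comparison gave 7 E2 probe sets higher and 6 lower and 1 deubiquitinase probe set higher and 13 lower, against 12.3% and 32.7% of all, with medians of 0.34 and -0.71 against -0.35 for all. All 10 arrays fitted together gave 4 called members for polyribosome RNA, and leaving out single arrays gave 2 to 29, with 2 without the serum-treated cytoplasmic array. For undertranslated RNA the range was 4 to 27, with 4 without the serum-treated cytoplasmic array, 6 without the starved one and 13 without starved undertranslated replicate 1.

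Ube2n, the signalling-chain E2, was lower than in cytoplasmic RNA in both gradient pools. Its levels were 5.91 and 5.71 in serum-treated and 5.77 and 5.45 in starved polyribosome RNA, and 5.53 and 7.12 in serum-treated and 6.45 and 6.27 in starved undertranslated RNA, against 7.68 in serum-treated and 7.76 in starved cytoplasmic RNA. Every gradient array was below both cytoplasmic arrays. The differences were -2.01 ± 0.20 for polyribosome (adjusted p = 0.000604) and -1.38 ± 0.46 for undertranslated RNA (adjusted p = 0.0499). The first passed in all 15 alternatives and the second in 8 of 15. Ube2d3 was higher than in cytoplasmic RNA in both pools, by 1.40 ± 0.24 in polyribosome and 3.20 ± 0.30 in undertranslated RNA (adjusted p = 0.0038 and 0.00021), with cytoplasmic levels of 6.16 serum-treated and 6.50 starved. Usp1, which turned to -0.42 as deposited in the undertranslated comparison, was higher in both as well, by 1.67 ± 0.27 and 1.64 ± 0.41 (adjusted p = 0.00264 and 0.016).

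In polyribosome RNA Ube2g1 was higher by 1.78 ± 0.27, Ube2a by 1.36 ± 0.21, Usp18 by 1.41 ± 0.23 and Uchl5 by 1.26 ± 0.26. On the lower side were Ube2l6 at -1.43 ± 0.45, Usp21 at -1.23 ± 0.28, Ube2h at -1.04 ± 0.24 and Usp19 at -1.04 ± 0.21. Usp2 was lower as well by its brighter probe set, at -0.95 ± 0.23 (adjusted p from 0.00239 to 0.0446 for these polyribosome values). As deposited, Ube2h, Usp19 and Usp2 turned to 0.19, 0.27 and 0.34. In undertranslated RNA Ube2w was higher by 2.89 ± 0.45, Ube2v2 by 2.85 ± 0.50 and Usp25 by 2.31 ± 0.39. Usp24 was at least 2.68-fold lower there, and Usp48 was lower at -2.03 ± 0.44, Usp19 at -1.93 ± 0.47, Ube2v1 at -1.86 ± 0.59 and Ube2z at -1.60 ± 0.50. Usp9x, a large enzyme of membrane traffic and cell adhesion, was higher by 1.50 ± 0.43 with its brighter probe set, and stood at -0.85 as deposited (adjusted p from 0.00229 to 0.042 for the members named here).

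Replicate 2 of the gradient groups, labelled with 4-thiouridine, was compared with the unlabelled replicate 1. No member passed, and 0% of all probe sets did; at an unadjusted p under 0.05 there were 3 members and 602 of all. With each gene taken by its brightest probe set, the largest values were 1.07 ± 0.46 for Usp18 and -0.89 ± 0.33 for Usp25 (adjusted p = 0.693 each) and 0.81 ± 0.56 for Ube2s. Over all comparisons 39 of 44 tested member genes (88.6%) were called at least once, against 71.8% of 7500 tested units over all. Those units were genes with 1 symbol and also probe sets without a symbol, each counted by itself, so the 2 shares are not fully alike. The difference was not tested. Ube2r2, Uchl1, Usp10, Usp39 and Usp4 were called in none.

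Other parts of the ubiquitin pathway were counted from gene lists, to be read against the 28.7% higher and 25.5% lower of all probe sets. Between polyribosome and undertranslated RNA, 3 of 11 genes of ubiquitin-like modifiers were higher and 6 lower (median -0.76), with Gabarap of autophagy higher by 3.27 ± 0.51 and Nedd8 lower at -1.84 ± 0.23. Of 6 E1 subunits 3 were higher and none lower (median 0.82), led by the SUMO E1 subunit Sae1 at 2.73 ± 0.37. Of 53 E3 ligases and cullin subunits 17 were higher and 12 lower (median 0.21). They ran from Rnf11 at -2.19 ± 0.17 to Nedd4, a membrane protein ligase, at 3.596 ± 0.44. The last list held deubiquitinases and SUMO proteases with other symbols, and also related subunits of larger complexes that need not be proteases themselves. Of its 14 genes 6 were higher and 3 lower (median 0.26), with the signalosome subunit Cops6 at 4.76 ± 0.33 and Eif3f at -2.14 ± 0.34. As deposited 11, 5, 50 and 13 genes of the 4 lists were called higher and 0 lower (52 E3 genes passed the filter there), and with median centring 5, 4, 33 and 9 were higher and 0, 1, 4 and 3 lower, with the median of the modifiers at 2.85 and 0.38. With serum, in polyribosome and cytoplasmic RNA, no gene of these 4 lists passed, with 2, 1, 8 and 0 genes at an unadjusted p under 0.05.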

How the data were processed

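The authors deposited 1 table of linear intensity values for 10 Affymetrix arrays. Per the labels' protocols, the RNA had been linearly amplified and given a biotin label. How probes were summarised or scaled is not given in the sources used here. The members and gene lists were chosen with earlier results of these data known.

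After 66 controls were removed, values were taken as log2(value + 1.5), the 10th percentile of all values, and quantile normalized, since the arrays' medians spanned 2.95 log2 units. The dimmest probe sets by mean level, up to the 25th percentile, were dropped, which left 9316. limma 3.58.1 in R 4.3.3 (lmFit, eBayes with a trend, two-sided, Benjamini-Hochberg at 0.05 over all 9316 in each comparison) was fitted to the 8 gradient arrays, or to the 6 arrays of polyribosome or undertranslated and cytoplasmic RNA with serum state and pool as terms. Some fits were tested on simulated data: the averaged fraction difference, both serum comparisons and polyribosome against cytoplasmic RNA. Cytoplasmic arrays were given the polyribosome spread there, since their own could not be measured. The fit of serum in undertranslated RNA made more false calls than the threshold allows. Fits within a serum state, the interaction, undertranslated against cytoplasmic RNA and the replicate comparison were not simulated. Precision is limited by the number of arrays.

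Where a side was above background on no array, "at least" folds set the bright side's mean against a floor, on each array the lowest level among probe sets above background or, if higher, the dim value itself. Named members are, per class and comparison, the largest called differences with 1 sign in all same-numbered pairs (up to 5 each way for the averaged fraction comparison, up to 3 otherwise), or the largest where none passed, plus 12 genes reported where measured. Further members are named to account for each role. A gene is named by its brightest probe set.

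By the labels, number 2 means thiouridine labelling wherever a gradient was run, and the numbers pair arrays in that sense. Same-numbered arrays deviated together with r = 0.275 in polyribosome RNA and 0.0171 to 0.0535 in the remaining pairs.

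Alternatives used median centring or no scaling, pseudocounts 1 and 4, a filter at the 50th percentile or none, no variance trend, a replicate block, all 10 arrays and each array left out. Those added after seeing the data were 1 probe set per gene, only probe sets above background on every array of a fit, no suffix probe sets, and undertranslated arrays only. Motifs were chosen after the values were seen, and protein lengths were not used here. Promoter windows and their coordinates are from RefSeq.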

Additional observations from a re-analysis of the deposited data

How the results depend on the processing

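The 4 undertranslated arrays were dim and varied most, which limits every value that rests on them, and the cytoplasmic pool had 1 array per serum state. On the values as deposited, members called numbered 56 for the averaged fraction difference (55 in serum-treated and 56 in starved cells), 0 for serum in polyribosome and cytoplasmic RNA, 0 for serum in undertranslated RNA and 48 for polyribosome against cytoplasmic RNA. The shares called of all probe sets were 92.3% (86.1% and 86%), 0.805%, 0.236% and 76.8% in the same order. The class medians of the averaged fraction difference were 2.80 (E2) and 3.80 (deubiquitinases) there, 0.34 and 1.34 with median centring, and 0.20 for the deubiquitinases with no filter. These scalings shift all probe sets, as given above; other causes were not tested. Single members that turned sign as deposited were Ube2k (2.03 averaged, 2.18 serum-treated, 1.89 starved), Ube2d3 (2.28 and 2.37 in serum-treated), Ube2v2 (1.71 and 1.22 in starved), Ube2o (1.88), Ube2w (1.46 in starved), Usp25 (0.17 in starved) and Usp3 (2.95, 3.05 and 2.86). Against cytoplasmic RNA they were Ube2h (0.19), Usp19 (0.27) and Usp2 (0.34) in the polyribosome comparison and Usp1 (-0.42) and Usp9x (-0.85) in the undertranslated one. With median centring Usp3 turned to 0.49, 0.52 and 0.45.

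With median centring members called were 36 in serum-treated cells, 28 in starved cells and 0 for serum in undertranslated RNA, against 57.7%, 48.4% and 0.73% of all. For that last comparison the count was 1 with pseudocount 4, 1 with no filter (a rise, of a Usp4 probe set that the filter drops, above background on 0 of 4 undertranslated arrays), 0 with the replicate block, 0 with undertranslated arrays only, 1 with 1 probe set per gene, 0 with probe sets above background throughout and 1 without suffix probe sets. For serum in polyribosome and cytoplasmic RNA it was 0 with no filter, 0 with no variance trend and 0 with all 10 arrays, against 0.193%, 0.204% and 0% of all. For polyribosome against cytoplasmic RNA it was 4 with all 10 arrays, against 4.55% of all. Probe sets above background throughout gave 17 for the averaged fraction difference, 11 in serum-treated and 11 in starved cells, and leaving out suffix probe sets gave 14 and 11 in the 2 states. Fewer probe sets enter these counts. The replicate block changed the call of 2 of the 57 called named values.

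Leaving out single arrays gave 22 to 44 members for the averaged fraction difference, 9 to 35 in serum-treated and 0 to 29 in starved cells, 0 to 0 for serum in polyribosome and cytoplasmic RNA, 0 to 14 for serum in undertranslated RNA, 0 to 6 for the interaction, 2 to 29 and 4 to 27 against cytoplasmic RNA, and class medians of -0.803 to -0.57 (E2) and 0.40 to 0.91 (deubiquitinases), the deubiquitinases' lowest without serum-treated undertranslated replicate 1. Over 57 called named values and 406 such refits, 105 refits lost the call and none turned sign.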
